A study of Mus musculus with 5 samples.

Results

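The insulin-like growth factor 1 gene Igf1, its carrier and binding protein genes Igfals and Igfbp1 to Igfbp7, and the growth hormone receptor gene Ghr were examined in mouse liver tumors with and without Prox1 overexpression. These 10 genes were chosen by symbol from the 55397 genes listed, and all 10 passed the filter on low values. Ghr rose 2.39-fold and Igfbp4 rose 1.83-fold in Prox1 OE tumors. Igfbp3 fell 2.11-fold and Igfbp5 fell 4.34-fold. The call of Igfbp4 held under 9 of 16 alternative analyses, those of Ghr and Igfbp3 under 15 and that of Igfbp5 under all 16. Igfbp6 also fell, with a log2 change of -3.21, a size that rested in part on 1 Control tumor, since without Control replicate 2 it was -1.99. Igf1 was 2.22-fold higher on average and above both Control values in every Prox1 OE tumor, but missed the test across all genes. Igfals, Igfbp1, Igfbp2 and Igfbp7 did not pass the test, and their groups overlapped.

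The liver is the main source of circulating IGF1. Pituitary growth hormone binds GHR on hepatocytes, and signaling through JAK2 and STAT5 then raises transcription of Igf1, of Igfals and of feedback inhibitors of the SOCS family. IGF1 leaves the liver bound to binding proteins, which prolong its life in blood and also limit its access to the receptor IGF1R. The acid-labile subunit encoded by Igfals holds IGF1 together with IGFBP3 or IGFBP5 in a large ternary complex.

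Tumors were dissected from livers of female C57BL/6N mice injected at 8 weeks of age. Every mouse received, by hydrodynamic tail vein injection, Sleeping Beauty transposase (4 µg) and EF1a-driven AKT and NICD plasmids (10 µg), the latter also encoding the doxycycline-dependent activator rtTA. The Prox1 OE group (n = 3) also received a doxycycline-inducible FLAG-tagged mouse Prox1 plasmid with GFP, and the Control group (n = 2) the same plasmid without Prox1. Doxycycline diet (6.25%) was given to both groups from day 21, for induction from week 3 to week 4, and tumors were taken after a week of induction or at a humane endpoint, without a record here of which applied to which tumor. Plasmid DNA integrates in part of the hepatocytes only, and a dissected tumor also holds host cells. The labels do not tie libraries to separate mice, so p-values measure the spread between these samples.

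Libraries held 48740863 to 56629477 reads, and a normalized count of 0.822 to 1.18 stood for 1 read. The hepatocyte marker Alb and the bile duct marker Krt19 were present in all 5 libraries. Prox1 was at 4153 and 4664 normalized counts in Control replicates 1 and 2, and at 48090, 11113 and 8231 in Prox1 OE replicates 1, 2 and 3. Its groups did not overlap, but the mean log2 change of 1.90 (SE 0.66) had an adjusted p of 0.061 in limma. Without Prox1 OE replicate 1 the change was 1.12 with an adjusted p of 0.0056. These counts do not separate plasmid from native Prox1 reads. With all 5 libraries, the mean log2 level of 12 hepatocyte markers was 1.53 higher in Prox1 OE. Prox1 OE replicate 1 stood apart, at 45.3 on the second principal component against -17.8 to 2.43 for the other libraries, and values without it are given where it changed a call among the 10 genes or the axis genes named. It had the highest Prox1 of the 3 overexpression libraries and the lowest Igf1, Igfals, Igfbp1, Igfbp2, Igfbp4 and Igfbp7. Among the 3, its Igfbp5 was the highest, and its Ghr, Igfbp3 and Igfbp6 lay in between. Its mean log2 level of the hepatocyte markers was also the lowest of the 3 (16.3, against 16.7 and 17.2 in replicates 2 and 3).

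Of the 17105 genes tested, 33.3% had an adjusted p under 0.05. Genes that rose were 17.1% of those tested and genes that fell 16.2%. Of the 10 genes of interest, 5 passed, 2 of them higher and 3 lower. Their median log2 change was 0.60, against -0.02 for all genes tested. Groups did not overlap for 6 of the 10, against 63.3% of all genes tested. Changes are on the log2(normalized count + 1) scale, with intervals not adjusted for the number of genes. When total reads were used as library size, the median of all genes moved to -0.44 and calls turned mainly lower (1475 higher and 6833 lower, against 2933 and 2769). All changes below are therefore relative to the deposited size factors, under which the median gene was near 0.

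**Figure D1:**
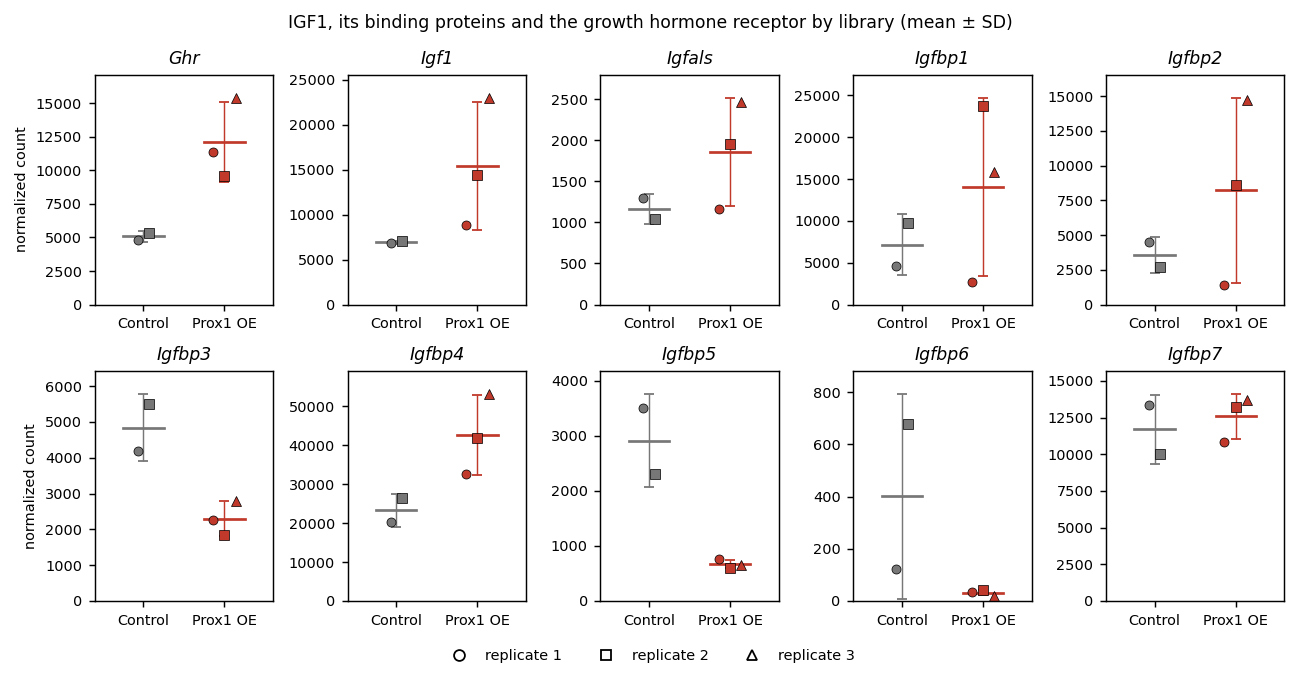
Normalized counts of the 10 genes in each library (y axes start at 0 and differ between panels), with gray symbols for Control (n = 2), red for Prox1 OE (n = 3), bars for the mean and whiskers for the SD. Ghr, Igf1 and Igfbp4 lay higher and Igfbp3, Igfbp5 and Igfbp6 lower in every Prox1 OE library, whereas Igfbp1 and Igfbp2 were lowest in Prox1 OE replicate 1 and highest in replicates 2 and 3.

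Ghr (chr15:3317760-3583492, minus strand, mm10) encodes the receptor that starts growth hormone signaling in hepatocytes. It had 4796 and 5353 normalized counts in the Control tumors and 11401, 9552 and 15422 in the Prox1 OE tumors. All 3 Prox1 OE tumors were well above both Control tumors. Means were 5075 ± 394 (SD, n = 2) in Control and 12125 ± 3001 (SD, n = 3) in Prox1 OE. Ghr rose with a log2 change of 1.23 (95% interval 0.76 to 1.70, limma adjusted p = 0.0050). The call was lost without Control replicate 1 (log2 change 1.15, adjusted p = 0.058).

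Igf1 (chr10:87858265-87937042, plus strand) encodes the ligand itself. Control tumors had 6819 and 7050 normalized counts, and Prox1 OE replicates 1, 2 and 3 had 8834, 14400 and 23031. The Control values lay close together, while the Prox1 OE values spread 2.61-fold. The log2 change was 1.05 (95% interval 0.24 to 1.85), with an adjusted p of 0.053 in limma. Without Prox1 OE replicate 1 it was 1.39 with an adjusted p of 0.0068. edgeR (adjusted p = 0.045) and DESeq2 (adjusted p = 0.0034) on the recovered reads also called it, so the call depended on the test. An antisense gene, Igf1os, overlaps Igf1, but held at most 49.8 normalized counts.

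Igfals (chr17:24865997-24882010, plus strand) encodes the acid-labile subunit, a known target of growth hormone through STAT5. Of its 3 promoter windows, 1 inside the span above was chosen because it holds letters of the STAT5 form TTCNNNGAA near its start. The 150 bases upstream of that start (chr17:24878081-24878230, GRCm38.p6, plus strand, RefSeq) are shown, with those letters in capitals, 58 bases before the start:
Igfals: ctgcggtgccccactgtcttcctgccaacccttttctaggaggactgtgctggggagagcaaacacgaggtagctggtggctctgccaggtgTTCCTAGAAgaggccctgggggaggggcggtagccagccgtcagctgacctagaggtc
Igfals had 1296 and 1037 normalized counts in Control and 1165, 1955 and 2470 in Prox1 OE. Prox1 OE replicate 1 fell between the Control values. The log2 change was 0.62 (95% interval -0.07 to 1.31, adjusted p = 0.14), and 0.92 (adjusted p = 0.0093) without that library. TTCNNNGAA was found in 2 Igfals windows and in no window of Igf1, Ghr or the Igfbp genes, against 8.298% of all 32851 promoter windows of 300 bases. The window of the printed stretch also held the forkhead letters TGTTTAC 242 bases before the start, upstream of what is shown (3.65% of all windows).

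Igfbp1 (chr11:7197782-7202546, plus strand) encodes a hepatocyte-secreted binding protein whose transcription insulin suppresses through FOXO1. Its upstream stretch (chr11:7197637-7197786, GRCm38.p6, plus strand, RefSeq) is shown for the insulin response element letters CAAAACAA, in capitals, 108 bases before the start, found in 2.511% of all windows:
Igfbp1: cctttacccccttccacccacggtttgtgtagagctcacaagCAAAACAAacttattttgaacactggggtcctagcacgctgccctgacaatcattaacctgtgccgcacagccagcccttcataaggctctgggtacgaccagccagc
Control tumors had 4568 and 9730 normalized counts of Igfbp1, and Prox1 OE replicates 1, 2 and 3 had 2656, 23788 and 15793. Replicate 1 was below both Control tumors and the other 2 were above both. The Prox1 OE values of Igfbp1 spread 8.95-fold, and the log2 change of 0.58 had a 95% interval of -1.39 to 2.56 (adjusted p = 0.62). Without replicate 1 it was 1.54 (adjusted p = 0.024).

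Igfbp2 (chr1:72824503-72852474, plus strand) encodes a binding protein that is abundant in fetal liver and in many tumors. It had 4512 and 2669 normalized counts in Control and 1373, 8642 and 14689 in Prox1 OE. The lowest and the highest value were both Prox1 OE tumors, 10.7-fold apart. The log2 change was 0.69 (95% interval -1.36 to 2.74, adjusted p = 0.58), and 1.70 (adjusted p = 0.012) without Prox1 OE replicate 1. With all 5 libraries, the intervals of Igfbp1 and Igfbp2 held changes of either sign.

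Igfbp3 (chr11:7206086-7213923, minus strand) encodes the main carrier of IGF1 in serum, which in rodent liver is made largely by nonparenchymal cells. It had 4177 and 5506 normalized counts in Control and 2260, 1829 and 2800 in Prox1 OE, where every value was below both Control values. The log2 change was -1.08 (95% interval -1.55 to -0.61, limma adjusted p = 0.0076). It was -0.88 with an adjusted p of 0.065 without Control replicate 2.

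Igfbp4 (chr11:99041244-99054392, plus strand) encodes a binding protein that restrains IGF action until the protease PAPP-A cleaves it. Its upstream stretch (chr11:99041094-99041243, GRCm38.p6, plus strand, RefSeq) is shown for the TATAAA letters, in capitals, 28 bases before the start, the place of a TATA box and found anywhere in 13.62% of all windows:
Igfbp4: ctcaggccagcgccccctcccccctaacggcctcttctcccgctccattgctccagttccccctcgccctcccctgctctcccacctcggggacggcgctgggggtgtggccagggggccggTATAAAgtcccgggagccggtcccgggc
It was the most abundant of the 10 in normalized counts, at 20340 and 26349 in Control and 32714, 42000 and 53203 in Prox1 OE. The groups did not overlap, and the log2 change was 0.85 (95% interval 0.31 to 1.39, limma adjusted p = 0.027). This was the least stable of the 5 calls. It was lost when total reads set the library size (0.42, adjusted p = 0.087), with no filter on low values (adjusted p = 0.051), without limma's trend (adjusted p = 0.064), and without Control replicate 1 (adjusted p = 0.23), Control replicate 2 (0.076), Prox1 OE replicate 2 (0.080) or Prox1 OE replicate 3 (0.053). TATAAA was also found 188 bases before the start of Ghr and 148 before that of Igfbp6, and TTGCGCAA and CAAAGTCCA in no window of the 10 genes (0.1826% and 0.4749% of all windows).

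Igfbp5 (chr1:72857932-72874884, minus strand) encodes a binding protein that attaches to extracellular matrix and can enter the ternary complex. It had 3508 and 2309 normalized counts in Control and 758, 601 and 654 in Prox1 OE. The 3 Prox1 OE tumors lay within 1.26-fold of each other and below both Control tumors. The log2 change was -2.09 (95% interval -2.55 to -1.63, limma adjusted p = 0.0022), and the call held under all 16 alternatives.

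Igfbp6 (chr15:102144362-102149511, plus strand) encodes a binding protein that prefers IGF2 over IGF1. It was the least abundant of the 10, with 124 and 678 normalized counts in Control and 33.7, 40.1 and 20.8 in Prox1 OE. The Control tumors differed 5.47-fold from each other, and every Prox1 OE value was below both. The log2 change was -3.21 (95% interval -4.77 to -1.66, limma adjusted p = 0.011). It ranged from -4.43 to -1.99 when single libraries were left out, at the ends without Control replicates 1 and 2, and stayed past the threshold each time.

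Igfbp7 (chr5:77349240-77408041, minus strand) encodes a secreted relative that binds IGFs weakly. It had 13366 and 10013 normalized counts in Control and 10823, 13237 and 13664 in Prox1 OE. The groups overlapped, and the log2 change of 0.11 had a 95% interval of -0.29 to 0.51 (adjusted p = 0.64). Igfbp7 overlaps Polr2b on the opposite strand, which reached 3315 normalized counts. The libraries preserved strand, but the setting used in counting was not stated, so some of these reads could belong to the neighbor.

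Without Prox1 OE replicate 1, 43.8% of all genes passed, and 9 of the 10 genes of interest did, 6 of them higher and 3 lower. Without Control replicate 1, 3 passed, all lower, when 6.77% of all genes passed. Igfbp5 and Igfbp6 were called whichever library was left out. Igfals, Igfbp1 and Igfbp2 were called under 1 of the 16 alternatives, the fit without Prox1 OE replicate 1, and Igf1 under 4.

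**Figure D2:**
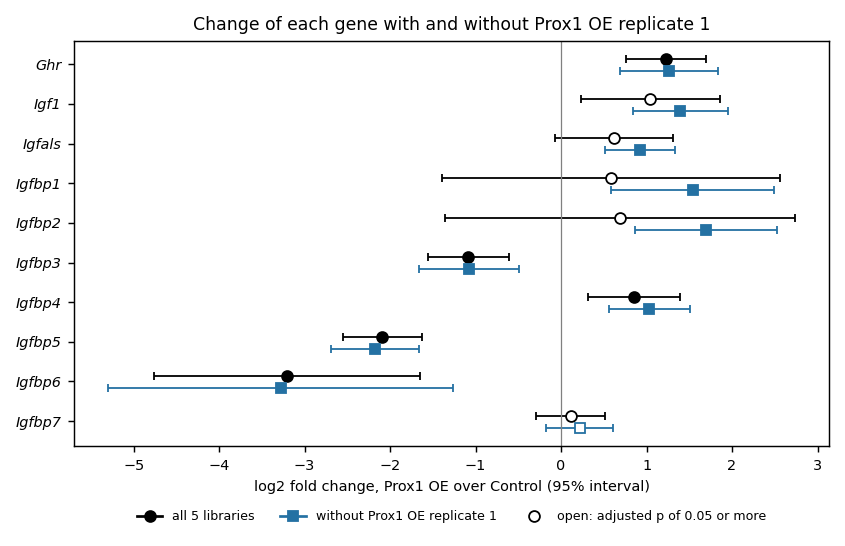
Log2 fold change of each gene, Prox1 OE over Control, with unadjusted 95% intervals from limma, for all 5 libraries (black circles) and without Prox1 OE replicate 1 (blue squares). Filled symbols have an adjusted p under 0.05, and without that library the intervals of Igfbp1 (0.59 to 2.49) and Igfbp2 (0.87 to 2.53) no longer reached 0.

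Levels were compared between genes per kb of the longest annotated transcript. In Control tumors Igfbp7 was highest (mean 9741 normalized counts per kb), followed by Igfbp4 (6094), Igfbp1 (4688), Igfbp2 (2747), Igfbp3 (2000), Ghr (1216), Igf1 (983), Igfbp5 (484), Igfals (444) and Igfbp6 (361). Ranges of neighbors in that order overlapped from Igfbp4 down to Igfbp3 and from Igfbp5 down to Igfbp6. In Prox1 OE tumors the order was Igfbp4 (11130), Igfbp7 (10479), Igfbp1 (9232), Igfbp2 (6301), Ghr (2904), Igf1 (2187), Igfbp3 (948), Igfals (710), Igfbp5 (112) and Igfbp6 (28.4). There, ranges of neighbors overlapped from Igfbp4 down to Igf1, and Igfbp3 overlapped with Igfals. Igfbp3 stood above Igf1 per kb in both Control tumors and below it in all 3 Prox1 OE tumors.

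The make-up of binding protein transcripts does not depend on library scaling. Igfbp3 took 6.81% and 8.45% of Igfbp1 to Igfbp7 transcripts in Control, and 4.35%, 1.68% and 2.40% in Prox1 OE. Igfbp5 took 2.31% and 1.43%, against 0.59%, 0.22% and 0.23%. Igfbp6 took 0.44% and 2.27%, against 0.14%, 0.08% and 0.04%. These 3 shares were lower in every Prox1 OE tumor. Shares of Igfbp1 (8.12% to 34.6% in Prox1 OE), Igfbp2, Igfbp4 and Igfbp7 overlapped between groups. Among 17 shares and ratios tested, the 3 non-overlapping shares each had an exact permutation p of 0.1, two-sided, the smallest that 2 against 3 samples allow, and an adjusted p of 0.28.

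**Figure D3:**
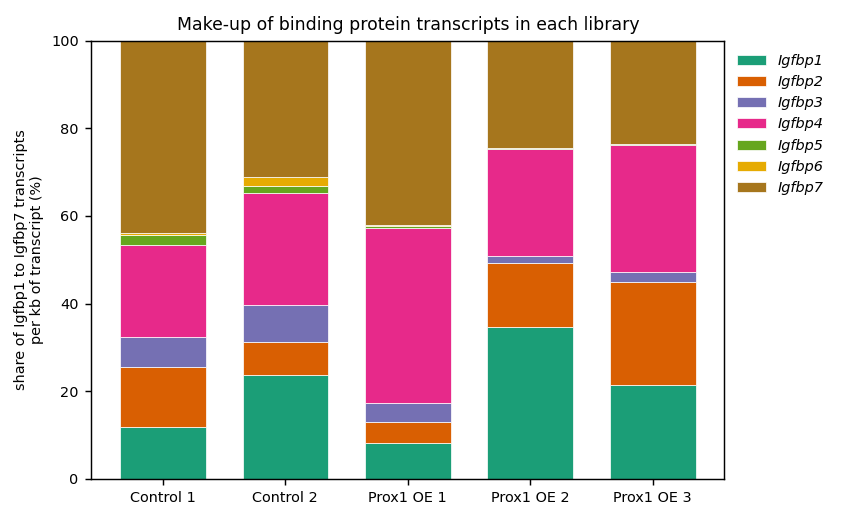
Share (%) of each binding protein gene among Igfbp1 to Igfbp7 transcripts, per kb of transcript, stacked for each of the 5 libraries. The bands of Igfbp3, Igfbp5 and Igfbp6 are thinner in all 3 Prox1 OE bars than in both Control bars, and those of Igfbp1 and Igfbp2 are wider in Prox1 OE replicates 2 and 3 than in replicate 1.

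The family contains 2 pairs of chromosomal neighbors with no gene between them, Igfbp1 with Igfbp3 (3539 bases apart) and Igfbp2 with Igfbp5 (5457 bases apart). The Igfbp2 to Igfbp5 ratio per kb was 5.91 and 5.31 in Control and 8.33, 66.1 and 103 in Prox1 OE. It was higher in all 3 Prox1 OE tumors (log2 difference 2.78, exact permutation p = 0.2, two-sided, adjusted p = 0.49). The Igfbp1 to Igfbp3 ratio was 1.74 and 2.81 in Control and 1.87, 20.6 and 8.96 in Prox1 OE. Its groups overlapped (exact permutation p = 0.3, adjusted p = 0.51). The ratio of Igf1 to summed Igfbp1 to Igfbp6, a transcript-level measure of ligand against binders, was -4.04 ± 0.24 (SD, n = 2) on the log2 scale in Control and -3.62 ± 0.39 (SD, n = 3) in Prox1 OE, with overlapping groups (exact permutation p = 0.3, adjusted p = 0.51).

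Markers of other cell types moved with these genes. Their counts, here and in the next paragraph, stand against 17.1% of all genes higher and 16.2% lower. Of 12 hepatocyte markers, 9 rose and none fell (median log2 change 1.70), with summed normalized counts of 1209200 to 1770000 in Control and 3573300 to 5168800 in Prox1 OE. Without Control replicate 1 only 1 of them, Asgr1, still passed, and without Prox1 OE replicate 2 there were 5. In these bulk samples, a change in the number of cells of a type and a change in RNA per cell cannot be told apart. Relative to the mean log2 level of the 12 hepatocyte markers, Igfals and Igfbp4 were lower in every Prox1 OE tumor than in either Control tumor, by 0.91 and 0.67 (each exact permutation p = 0.1, adjusted p = 0.28). Igf1, Ghr, Igfbp1 and Igfbp2 overlapped on that measure, with mean differences of -0.48, -0.30, -0.94 and -0.84. The hepatocyte marker mean itself was 1.53 higher.

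Igfbp3, Igfbp5 and Igfbp6 fell beside bile duct and fibroblast markers, but not beside those of macrophages and endothelium. Of 8 macrophage markers 3 rose and none fell, and of 8 endothelial markers 3 rose and 1 fell. Of 8 cholangiocyte markers 7 fell and none rose (median -1.56), with sums of 758310 to 827380 in Control and 523550 to 707490 in Prox1 OE, most of it Spp1, the 1 marker that did not pass. The 7 became 4 without Control replicate 1 and 5 without Control replicate 2. Of 8 myofibroblast and fibroblast markers 5 fell, among them Col1a1 (log2 change -1.23), and none rose (median -0.76), with sums of 129510 to 135070 against 71206 to 84137. Without Control replicate 1 the 5 became 2, Col1a1 and Acta2. Of 8 stellate cell markers 3 rose and 1 fell (median -0.15), with sums of 35717 to 36373 against 23654 to 25978. Most of that sum was Rgs5, the 1 marker that fell (31073 and 30128 in Control, 17209 to 19395 in Prox1 OE), and without Control replicate 1 the list had 1 call, higher. With total reads as library size it had 2 higher and 4 lower. No marker in these lists was at or under 3 reads in every library, and the part of cell type shares in the changes of Igfbp3, Igfbp5, Igfbp6, Ghr and Igfbp4 was not tested.

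The genes most like each called gene with a log2 change of at least 1 were found by the distance between centered log2 values over the 5 libraries, among 12969 genes. Cmah (distance 0.052), Kynu (0.104) and Gramd1c (0.108) were nearest to Ghr, and 561 genes lay within 0.5. Srgap3 (0.143), Dgkh (0.249) and Shroom4 (0.355) were nearest to Igfbp3, with 49 genes within 0.5. Cthrc1 (0.340), Map1b (0.396) and Itgb8 (0.430) were nearest to Igfbp5, with 6 within 0.5. Megf10 (0.605), Car9 (0.872) and Mmp7 (1.14) were nearest to Igfbp6, with 0 within 0.5. Megf10, Car9 and Mmp7 shared with Igfbp6 a higher value in Control replicate 2 than in replicate 1. These distances are descriptions, and all libraries enter both the choice and the measure.

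Other genes of the axis were taken from lists of receptors, proteases, adaptors, growth hormone signaling genes, target genes and proteins that share the IGFBP-type N domain. Of 52 listed, 44 were tested, 6 rose (13.6%, against 17.1% of all genes) and 14 fell (31.8%, against 16.2%), with a median log2 change of -0.37. Of these 20 calls, 7 held under every alternative that tested the gene, namely Igf1r, Stc1, Grb10, Socs2, Esm1, Ccn1 and Insrr, which was too low to be tested at a mean of at least 50. The other 13 were lost when a Control library was left out, 10 of them without either one in turn, Ctsd and Srebf1 without replicate 1 and Cish without replicate 2. Of the 4 receptors, Igf1r, the signaling receptor for IGF1, had 1513 and 1507 normalized counts in Control and 440, 260 and 193 in Prox1 OE. It fell in every Prox1 OE tumor (log2 change -2.42, limma adjusted p = 0.0029), and was called under all 16 alternatives. Igf2r, which clears IGF2, had a log2 change of -0.44 (adjusted p = 0.059), or -0.57 (adjusted p = 0.0060) without Prox1 OE replicate 1. Insr, the insulin receptor, had a change of 0.01 (adjusted p = 0.97). Insrr, an orphan relative of the insulin receptor, had 6.57 and 0.85 normalized counts in Control and 52.1, 50.7 and 23.1 in Prox1 OE. It passed the filter on low values only through the Prox1 OE group, and Control replicate 2 was under the floor of 3 reads. Its log2 change of 3.44 (adjusted p = 0.010) is therefore uncertain in size, at 1.90 with a pseudocount of 10, 2.42 without Control replicate 2 and 4.45 without Control replicate 1. The ligand genes Igf2, Ins1 and Ins2 were at or under 3 reads in every library.

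Of 8 growth hormone signaling genes tested, 1 rose and 3 fell, the latter being the feedback inhibitors Socs2, Cish and Socs1. Among these 3, the call of Socs2 held under all 16 alternatives. Socs2 had 3688 and 3837 normalized counts in Control and 1672, 2010 and 1642 in Prox1 OE, a fall in every tumor (log2 change -1.09, limma adjusted p = 0.0026). Cish fell by 0.95 (adjusted p = 0.0086) and Socs1 by 0.95 (adjusted p = 0.019) on the log2 scale, whereas Socs3 had a change of -0.55 that did not pass (adjusted p = 0.31). Cish was not called without Control replicate 2 (-0.72, adjusted p = 0.084), nor Socs1 without Control replicate 1 (adjusted p = 0.11), Control replicate 2 (0.18) or Prox1 OE replicate 2 (0.052). Jak2, Stat5a and Stat5b did not pass (log2 changes -0.34, 0.30 and 0.19), and Jak2 passed without Prox1 OE replicate 1 (-0.38, adjusted p = 0.037). Prlr, the prolactin receptor of the same class as GHR, rose by 1.25 on the same scale (adjusted p = 0.015), and was called under 13 of 16 alternatives. Onecut1, a growth hormone responsive liver factor, fell by 1.87 (adjusted p = 0.016) and was called under 14 of 16 alternatives. Egfr and Bcl6 had changes of -0.07 and -0.21. Of the target genes listed for growth hormone and STAT5, 0 of 7 passed higher and 3 passed lower (17.1% and 16.2% of all genes). Igf1 and Igfals are among the 7, and both passed higher without Prox1 OE replicate 1.

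Among proteases and their inhibitors, Stc1 (log2 change -3.31, adjusted p = 0.0024) and Stc2 (-1.68, adjusted p = 0.028), which block PAPP-A, fell. Pappa, which encodes the protease that cleaves IGFBP4, had a change of -1.79 that did not pass (adjusted p = 0.055), at 3.54 to 33.9 normalized counts, and was called under 6 of 15 alternatives, among them edgeR (0.045) and DESeq2 (0.048). Ctsd, a lysosomal protease, rose by 0.95 on the log2 scale (adjusted p = 0.0035). Of the adaptors, Grb10, which restrains IGF1R signaling, fell by 1.10 (adjusted p = 0.0025), and Irs1 rose by 0.81 (adjusted p = 0.047) but was called under only 8 of 16 alternatives, and Stc2 under 11. Irs2, Shc1 and Grb14 did not pass.

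Of 8 genes regulated by insulin and FOXO1, Igfbp1 among them, 2 rose and 1 fell, near the shares of all genes (17.1% and 16.2%). Srebf1, a lipogenic factor that insulin induces, rose by 0.73 on the log2 scale (adjusted p = 0.0042) and G6pc, a gluconeogenic gene that insulin represses, by 1.84 (adjusted p = 0.023). Pck1, likewise repressed by insulin, had 6870 and 12639 normalized counts in Control and 11296, 56549 and 74609 in Prox1 OE, with a change of 1.96 (adjusted p = 0.078). Its lowest Prox1 OE value was again replicate 1, without which the change was 2.80 (adjusted p = 0.0037), and edgeR (0.048) and DESeq2 (0.044) also called it with all libraries. Foxo3 fell by 0.45 (adjusted p = 0.029), and was called under 11 of 16 alternatives and G6pc under 12.

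Of 10 genes with an IGFBP-type N domain outside the classical family, 5 fell and none rose, against 16.2% and 17.1% of all genes. Esm1 (-2.29, adjusted p = 0.0019), Ccn2 (-1.80, 0.023), Igfbpl1 (-1.33, 0.0090), Ccn1 (-1.25, 0.0048) and Ccn4 (-0.84, 0.017) were those called, by limma. The calls of Esm1 and Ccn1 held under all 16 alternatives, those of Ccn4 and Igfbpl1 under 14 and that of Ccn2 under 13. With total reads as library size, Kazald1, Ccn3 and Crim1 were also called lower. Within the classical family, which shares the domain, Igfbp3, Igfbp5 and Igfbp6 fell, Igfbp4 rose, and Igfbp1 and Igfbp2 did not pass. The weakly binding relative Igfbp7 did not pass either. Crim1 had a change of -0.68 (adjusted p = 0.081), or -0.95 (adjusted p = 0.0062) without Prox1 OE replicate 1.

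**Figure D4:**
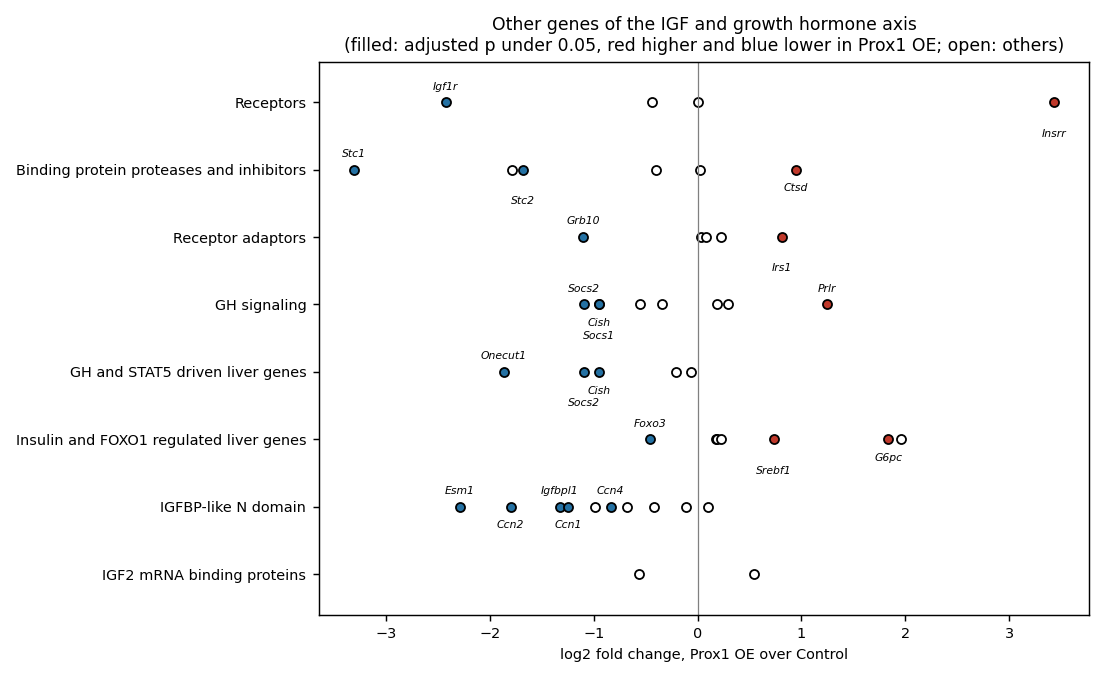
Log2 fold change, Prox1 OE over Control, of the 44 tested axis genes other than the 10 genes of interest, by list, with filled points for an adjusted p under 0.05 in limma. Blue points (14 genes) outnumber red ones (6 genes), with Igf1r and Stc1 farthest to the left and Insrr to the right, and Socs2 and Cish appear in both growth hormone lists.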

How the data were processed

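Whole-tumor RNA was sequenced from 2 Control and 3 Prox1 OE libraries as strand-preserving (dUTP) pairs of 100 base reads. Per the labels and methods, the authors aligned reads with STAR to mm10 and divided them by DESeq2 size factors. The counting tool and its strand setting are not given in the sources used here. The deposited values are thus a signal, reads per size factor. Whole reads were recovered for 100% of values (tolerance 0.01). The authors' table of their own comparison (mean normalized count, shrunken log2 fold change, p-values with and without hypothesis weighting) was not used.

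Genes with a mean normalized count of at least 10 were tested with limma 3.58.1 in R 4.3.3 (lmFit, eBayes with trend, two-sided) on log2(normalized count + 1), with Benjamini-Hochberg adjustment over 17105 genes and a threshold of 0.05. This scale understates changes of low genes. Shares and ratios used exact permutation tests. Counts of up to 3 reads were treated as a floor (2.46 to 3.54 normalized counts), which covers counting error only. Gene names and coordinates came from GENCODE M21 of GRCm38 (55137 identifiers matched), and promoters from RefSeq GRCm38.p6, where all 10 genes matched, in 14 windows of 250 bases before to 50 after the start. Letters searched on both strands were TATAAA, TTCNNNGAA (STAT5), CAAAACAA, TGTTTAC (forkhead), TTGCGCAA (C/EBP) and CAAAGTCCA (HNF4A), and a match is no evidence of binding.

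Named genes were the 10 genes of interest, Prox1, every axis gene that passed, and receptors. Further axis genes that did not pass (such as Pck1, Pappa, Jak2 and Crim1) were named after their values were seen, and the rest are given by counts, while 1 gene was left out of the lists and is not reported here. The genes, lists and tests were chosen with earlier results of these data known. Alternatives were TMM, upper-quartile and total-read scaling, pseudocounts of 0.1 and 10, no filter or a mean of at least 50, limma without trend, edgeR 4.0.16, DESeq2 1.42.0, a replicate block and each library left out.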

Additional observations from a re-analysis of the deposited data

How the results depend on the processing

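Scaling by total reads gave 1475 genes higher and 6833 lower, 1 gene of interest higher and 23 other axis genes lower, and put Igfbp7 at -0.32 and Insr at -0.42. No filter and limma without the trend each left 1 gene of interest higher, and the latter 3 other axis genes higher. edgeR on recovered reads put Prox1 at 2.35 (adjusted p = 0.048). With the replicate block, Prox1 was at 2.39 (adjusted p = 0.0013), Igf1 was called (0.70, adjusted p = 0.015), Igfbp2 was at -0.010 and Insr at -0.11, and 5246 genes were called. Whether the replicate numbers pair the samples is not known, since no label ties them. Correlations of same-numbered deviations were 0.137 and 0.016. They cannot settle it, because the deviations of the 2 Control libraries mirror each other.

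Leaving out single libraries gave 1158 to 7491 genes called (681 to 3738 higher, 477 to 3753 lower), 3 to 9 genes of interest (0 to 6 higher) and 8 to 24 other axis genes (1 to 7 higher, 6 to 17 lower), and Prox1 at 1.12 to 2.39. The low counts came without a Control library and the high ones without Prox1 OE replicate 1. Across them Igfbp1 ran from -0.042 (without Prox1 OE replicate 2) to 1.54, Igfbp2 from -0.010 (without Prox1 OE replicate 3) to 1.70, Igfbp7 from -0.10 (without Control replicate 2) to 0.32 and Insr from -0.11 (without Prox1 OE replicate 3) to 0.10. The cause of these changes was not tested. Of 160 refitted values of the 10 genes, 139 kept direction and side of the threshold. Depth limits Igfbp6 most, at 20.8 to 40.1 normalized counts in Prox1 OE.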

Other observations

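Other marker lists are given beside the 17.1% of all genes higher and 16.2% lower. Of 8 macrophage markers 3 rose and none fell (median log2 change 0.66), with sums of 22621 to 25463 normalized counts in Control and 34533 to 52330 in Prox1 OE. The highest sum, in Prox1 OE replicate 1, was largely Lyz2, which did not pass, and the 3 that rose (Clec4f, Vsig4 and Cd5l) were highest in replicate 3. The macrophage count was 6 with DESeq2 and with the replicate block, and 1 by limma without the trend. Of 8 endothelial markers 3 rose and 1 fell (median 0.41), or 2 and 3 with total reads as library size, and of 6 lymphocyte markers tested 3 rose and none fell (median 1.01). Of 5 proliferation markers 4 fell and none rose (median -0.90). Without Control replicate 1, the macrophage and endothelial lists had 1 call each, and the lymphocyte and proliferation lists lost all of theirs. The lymphocyte list also lost all of its calls without Control replicate 2 and without Prox1 OE replicate 2. Of the IGF2 mRNA binding protein genes, neither of the 2 tested passed, with log2 changes from -0.57 to 0.55.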
